A study of Drosophila melanogaster with 8 samples.

Results

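Dosage compensation and sex determination genes were compared between females of the fruit fly strains Dahomey and Oregon R (Drosophila melanogaster). The 10 genes were chosen by name. Of these, roX1, roX2, msl-1, msl-2, msl-3, mle and mof encode the RNA and protein components of the male dosage compensation complex. The others, Sxl, tra and dsx, form the chain of regulators that sets sex. All 10 were found among the 14701 gene IDs of the authors' deposited table, and all 10 had a p-value. RNA had been taken from heads and thoraxes together of mated females aged 10 days and kept at 25 °C, with 60 flies in each library and 4 libraries per strain. The labels give no mutation or treatment in either strain, and describe the strains by name only. The table held 1 row of values per entry for the comparison of the strains and no value for any single library, so errors are the authors' standard errors (SE) of the log2 fold change, the overlap of single libraries cannot be shown, and depth per library is unknown. A positive sign was taken to mean a higher level in Dahomey because that strain comes first in the table's name; the headers leave the sign unstated, and under the reverse reading all directions turn together.

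Male flies carry fewer X chromosomes than females, and dosage compensation raises transcription of the male X to match. The MSL complex, made of MSL1, MSL2, MSL3, the helicase MLE, the histone acetyltransferase MOF and the non-coding RNAs roX1 and roX2, coats the male X and acetylates histone H4 there. In females the RNA-binding protein Sex-lethal (SXL) blocks the production of MSL2, so that the complex does not form. SXL also directs the splicing of tra, whose product TRA, with TRA2, directs the female splicing of dsx and fru. Much of this regulation acts on splicing and translation, which a read count per gene does not resolve.

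None of the 10 genes passed an adjusted p under 0.05 in the authors' DESeq2 test, against 29.4% of all 13395 rows with a p-value. At an unadjusted p under 0.05 the count was 3 of 10 (Sxl, roX1 and roX2), against 36.6% of all rows, and no other tool could be run on a table without counts per library. All 3 had negative log2 fold changes in the authors' deposited table; 18.2% of all rows were both negative and under that unadjusted threshold. Most fold changes were small. Of the 10 genes, 7 had an absolute log2 fold change under 0.1, and the median absolute value was 0.064, against 0.17 over the 13065 genes tested once each. The sign was negative for 9 genes and positive for msl-3 alone, against 51.1% negative among all genes tested; the 10 fold changes come from the same libraries and are not independent.

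**Figure D1:**
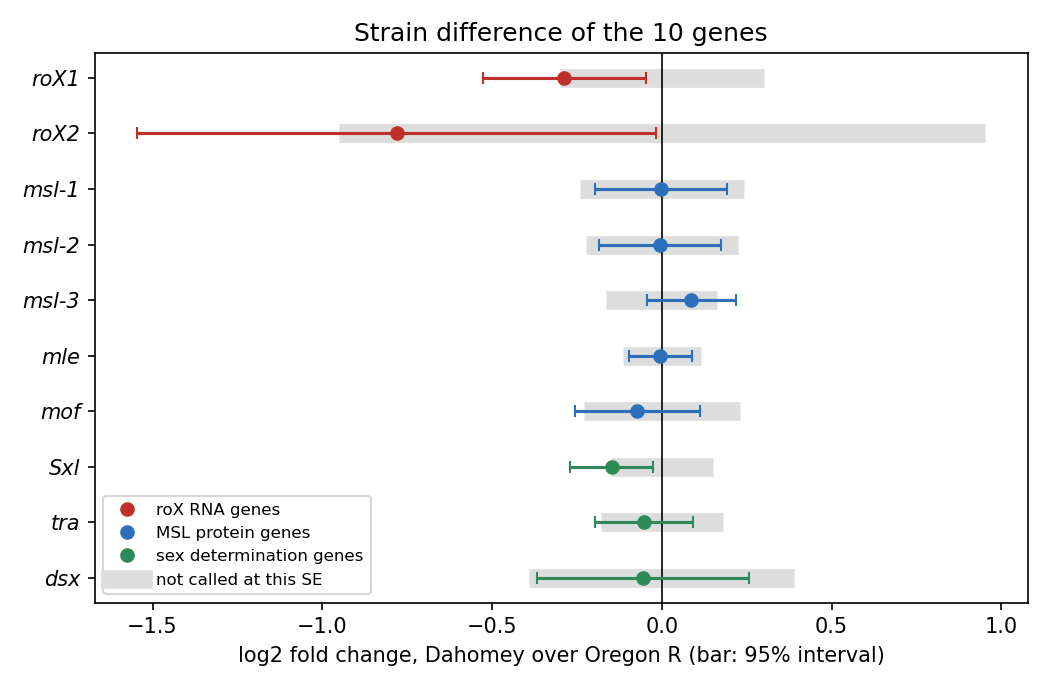
Log2 fold change of each of the 10 genes, Dahomey over Oregon R, on the horizontal axis, with 95% intervals from the authors' SE as bars and 1 row per gene; grey bands span the fold changes that would not have been called at that gene's SE. All 10 points lie inside their bands, with Sxl and roX1 close to the edge at -0.15 and -0.29.

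The 2 non-coding RNA genes had the most negative fold changes of the 10, and neither passed. In the authors' deposited table, roX1 (FBgn0019661, X chromosome) had a mean of 513 normalized counts over all 8 libraries and a log2 fold change of -0.29 ± 0.12 (SE; DESeq2 adjusted p = 0.0628). With equal numbers of libraries, that mean and fold imply about 462 normalized counts in Dahomey and 564 in Oregon R. The 95% interval of the difference ran from 30.6% lower to 3.18% lower in Dahomey, before any adjustment for the number of genes tested. A call at the SE of roX1 would have needed an absolute log2 fold change of 0.30, just beyond the value measured.

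roX2 (FBgn0019660, X chromosome), which can stand in for roX1 in males, was near the lower limit of what the libraries measured. Its mean was 25.2 normalized counts, and its log2 fold change of -0.78 ± 0.39 had a DESeq2 adjusted p of 0.126 in the authors' deposited table. The implied levels were about 18.5 normalized counts in Dahomey and 31.8 in Oregon R. The authors' fold changes look shrunken, so levels implied for a gene this low may lie too close together. The interval was wide, from 65.7% lower to 1.09% lower in Dahomey. A call at this SE would have needed a 1.93-fold difference on the scale of the table. Among 279 genes with a mean from 20% below to 25% above that of roX2, 19.7% were called, and 76.7% had a smaller absolute fold change.

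roX1 was more abundant than roX2 in these females. Per kb of exon in the BDGP6 annotation, roX1 had a mean of 93.9 normalized counts and roX2 had 18.4, a 5.10-fold ratio that carries no error because no value per library was available. roX1 shares 392 exonic bases with ec, a protein-coding gene on the opposite strand, in that annotation. The library kit named in the labels does not mark strand, so reads from the shared bases cannot be assigned. In the authors' deposited table ec itself had a log2 fold change of -0.19 ± 0.10 (DESeq2 adjusted p = 0.155).

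The 5 genes for MSL proteins had fold changes close to 0. mle, the RNA helicase that remodels the roX RNAs (FBgn0002774, arm 2R), was measured most precisely. Its mean was 7539 normalized counts and its log2 fold change -0.0044 ± 0.047 (DESeq2 adjusted p = 0.964) in the authors' deposited table. The interval of mle ran from 6.51% lower to 6.32% higher in Dahomey, the narrowest of the 10. Of 1016 genes with a mean in the same range around that of mle, only 5.61% had a smaller SE than mle.

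msl-2, the subunit whose absence keeps the complex from forming in females, had transcripts at a mean of 1717 normalized counts. In the authors' deposited table its log2 fold change was -0.0064 ± 0.092 (DESeq2 adjusted p = 0.973), which implies about 1713 normalized counts in Dahomey and 1720 in Oregon R. The interval of msl-2 (FBgn0005616, arm 2L) ran from 12.1% lower to 12.8% higher. msl-1, the scaffold that joins MSL2 to the other proteins (FBgn0005617, arm 2L), had a mean of 3756 normalized counts and a log2 fold change of -0.0029 ± 0.099 (DESeq2 adjusted p = 0.988) in the authors' deposited table. Only 0.919% of the 13065 genes had a smaller absolute fold change than msl-1. Its interval still allowed values from 12.7% lower to 14.1% higher.

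msl-3, which binds methylated histone H3 on active genes (FBgn0002775, arm 3L), was the gene with a positive fold change. The authors' deposited table gave it a mean of 1710 normalized counts and a log2 fold change of 0.087 ± 0.067 (DESeq2 adjusted p = 0.386), with an interval from 3.04% lower to 16.3% higher in Dahomey. mof, the acetyltransferase gene (FBgn0014340, X chromosome), had the lowest mean of the 5 protein genes, 687 normalized counts. Its log2 fold change in the authors' deposited table was -0.072 ± 0.094 (DESeq2 adjusted p = 0.661), with an interval from 16.3% lower to 8.06% higher. Differences of a few percent, in either direction, were not detectable for any of the 5 at this precision. In the BDGP6 annotation msl-3 shares 85 exonic bases with form3 on the opposite strand. form3 had a mean of 15422 normalized counts and a log2 fold change of 0.14 ± 0.075 (DESeq2 adjusted p = 0.156) in the authors' deposited table. The part of form3 in the value of msl-3 was not tested.

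Sxl, the switch gene at the top of the pathway (FBgn0264270, X chromosome), was the most abundant of the 10 and came nearest to the threshold. In the authors' deposited table its mean was 24410 normalized counts, with a log2 fold change of -0.15 ± 0.062 (DESeq2 adjusted p = 0.0557). The implied levels were 23158 normalized counts in Dahomey and 25662 in Oregon R, and the interval ran from 17.0% lower to 1.84% lower in Dahomey. Sxl stood on 2 rows of the table, and the headers do not say what separates them. The other row, with a mean of 22367 normalized counts, had a log2 fold change of -0.15 ± 0.063 (DESeq2 adjusted p = 0.0511) in the authors' deposited table. The call for Sxl depended on the rows entering the adjustment: over rows with a mean of at least 10 the Benjamini-Hochberg adjusted p of the same Wald test was 0.0468, and over rows with a mean of at least 100 it was 0.0446, in a range of 0.0446 to 0.562 over the 8 alternatives run. No library could be left out, so it is unknown whether 1 library carried this difference. Among 318 genes of similar mean, 42.5% were called and 46.2% had a smaller absolute fold change.

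tra, whose female-spliced RNA encodes the next regulator (FBgn0003741, arm 3L), had a mean of 1703 normalized counts. Its log2 fold change was -0.052 ± 0.074 (DESeq2 adjusted p = 0.693) in the authors' deposited table, with an interval from 12.7% lower to 6.60% higher. In the BDGP6 annotation tra shares 74 exonic bases with l(3)73Ah on the opposite strand. l(3)73Ah had a mean of 2916 normalized counts and a log2 fold change of -0.069 ± 0.061 (DESeq2 adjusted p = 0.470) in the authors' deposited table. The part of l(3)73Ah in the value of tra was not tested.

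dsx, which encodes the transcription factor that carries out most somatic sexual differentiation (FBgn0000504, arm 3R), had a small fold change and a large error for its level. In the authors' deposited table its mean was 4906 normalized counts and its log2 fold change -0.056 ± 0.16 (DESeq2 adjusted p = 0.854). The SE was 2.10 times the median of 1086 genes of similar mean that had a p-value, and 2 of those genes had a larger one. Of a further 56 genes in that range without a p-value, 48 had a larger SE than dsx, so dsx ranks near the top among genes with a p-value and lower once the others are included. The interval of dsx therefore ran from 22.6% lower to 19.6% higher in Dahomey, and a call would have needed a 1.31-fold difference. Which libraries were high or low for dsx cannot be read from the table. In the BDGP6 annotation dsx shares 169 exonic bases with lds on the opposite strand, which had a mean of 1284 normalized counts, an SE of 0.34 and no p-value in the authors' deposited table. The part of lds in the SE of dsx was not tested.

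**Figure D2:**
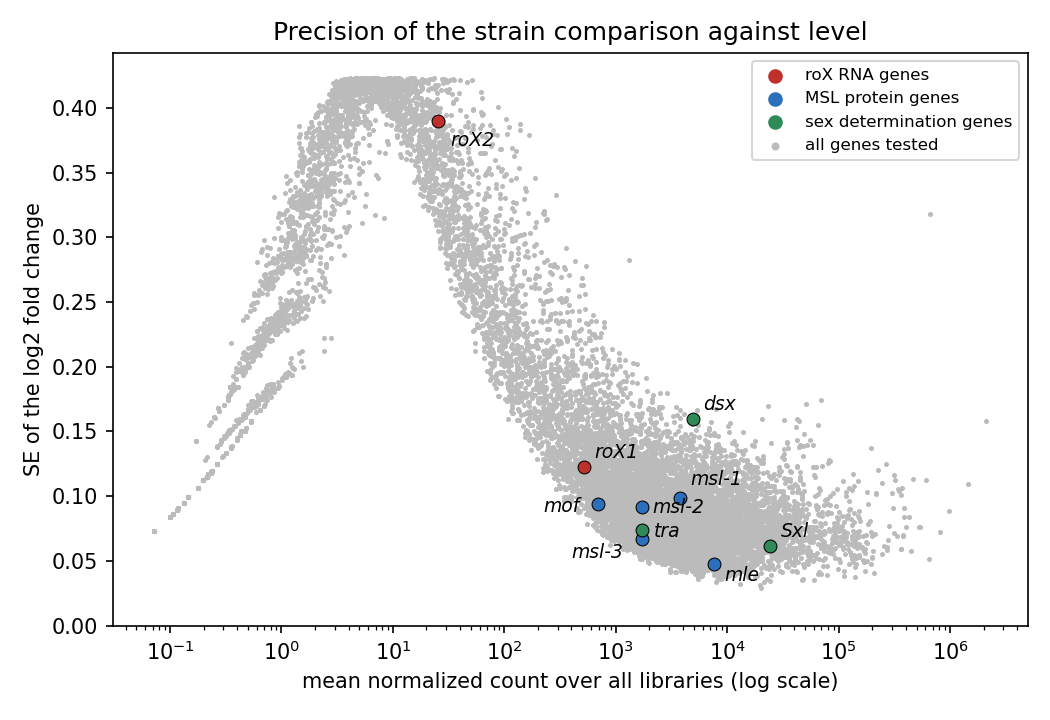
SE of the log2 fold change on the vertical axis against the mean normalized count over all libraries on a logarithmic horizontal axis, with the 13065 genes that had a p-value in grey and the 10 genes in colour. dsx lies near the upper edge of the tested genes of its level at an SE of 0.16, mle near the lower edge at 0.047, and roX2 in the region where SE is high at 0.39.

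Levels of the 10 genes, as mean normalized counts per kb of exon in the BDGP6 annotation, spanned a 144-fold range. Sxl had 2656 per kb, above 80.0% of genes tested, followed by tra with 1975 and mle with 1624. msl-3 had 868 per kb, msl-1 had 748, dsx had 535, msl-2 had 447 and mof had 228, around the median of 685 over 12845 genes with a length. roX1 and roX2 were last, above 28.8% and 20.0% of genes tested. Without values per library, it cannot be said which neighbours in this order differ beyond their spread, and lengths from BDGP6 need not be those the authors counted over.

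**Figure D3:**
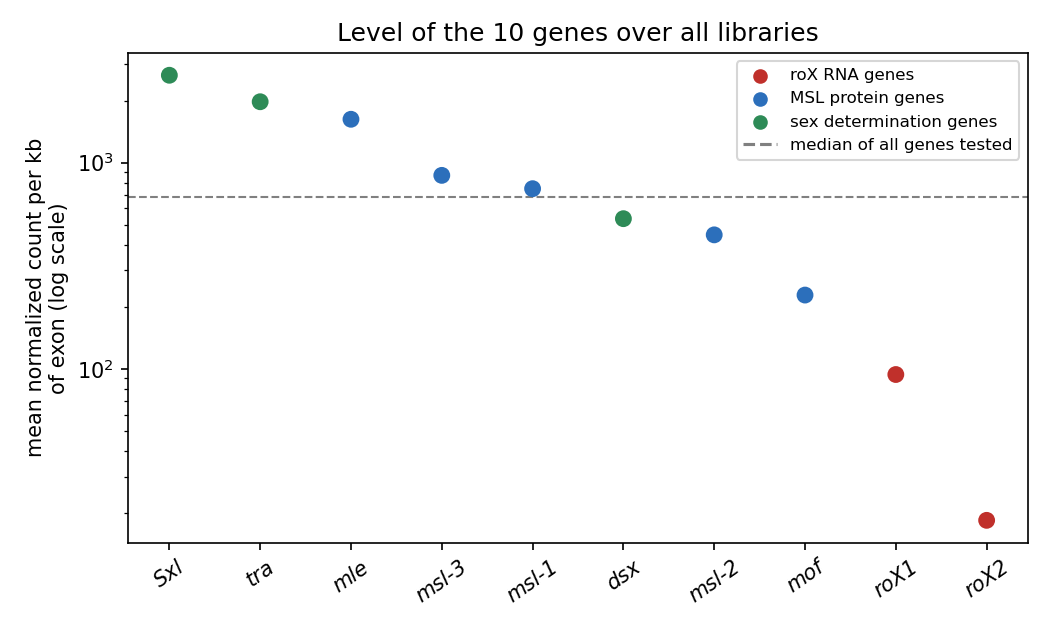
Mean normalized count per kb of exon over all libraries on a logarithmic vertical axis for each of the 10 genes, in order, with the median of all genes tested as a dashed line at 685. The 3 highest genes are Sxl, tra and mle, and the 2 roX genes are lowest at 93.9 and 18.4.

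The partners of these genes were described from 4 lists. Over the 47 partner and target genes that had a p-value, Dahomey was higher for 6 and lower for 9, and 32 did not pass, so that 15 of 47 were called against 29.4% of all rows. Their median log2 fold change was -0.016, against -0.0056 over all genes tested.

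Among 21 further genes of sex determination, 5 were lower in Dahomey, 1 was higher and 15 did not pass, with a median log2 fold change of -0.039. The 6 called were 28.6% of the 21, against 29.4% of all rows. The lower genes included subunits of the m6A writer, the enzyme complex that methylates adenosines in mRNA and is needed for efficient female splicing of Sxl. Mettl3, its catalytic subunit, had a log2 fold change of -0.54 ± 0.11 (DESeq2 adjusted p = 6.82e-06) in the authors' deposited table. Mettl14, the partner that helps Mettl3 bind RNA, had -0.28 ± 0.086 (DESeq2 adjusted p = 0.00655) there. The one higher gene belongs to the same complex: fl(2)d, a splicing cofactor of SXL, had 0.20 ± 0.059 (DESeq2 adjusted p = 0.00335) in the authors' deposited table. The other 4 of the 7 writer subunits did not pass. In the authors' deposited table the log2 fold changes were -0.054 for vir, -0.039 for nito and 0.11 for flacc. Hakai came nearest to the threshold of these 4, at 0.17 ± 0.072 (DESeq2 adjusted p = 0.0584) there. The reader gene Ythdc1, which binds the methylated sites of Sxl RNA, had -0.023 ± 0.058 (DESeq2 adjusted p = 0.833) there.

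Of the genes that act with or downstream of TRA, tra2 had a log2 fold change of -0.22 ± 0.081 (DESeq2 adjusted p = 0.0264) and fru, the regulator of courtship neurons, had -0.23 ± 0.067 (DESeq2 adjusted p = 0.00400) in the authors' deposited table. snf, a spliceosomal protein gene needed for Sxl autoregulation, had -0.17 ± 0.056 (DESeq2 adjusted p = 0.00969) there. Neither ix, a cofactor gene of DSX, nor her passed, with -0.022 for ix and -0.056 for her in the authors' deposited table. The X-counting genes sisA and sc, which act in the early embryo, had means of only 6.53 and 1.67 normalized counts and did not pass, and a call at their SE would have needed differences of 2.00-fold and 1.90-fold on the scale of the table. Mettl14, tra2 and snf were named after their values were seen.

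Of 14 dosage compensation partners 13 had a p-value, of which 2 were higher in Dahomey, 3 were lower and 8 did not pass. Their median log2 fold change was 0.045. The 5 called were 38.5% of the 13, against 29.4% of all rows. Clamp, the zinc-finger protein that brings the MSL complex to the X, had 0.045 ± 0.066 (DESeq2 adjusted p = 0.701), and JIL-1, a histone kinase enriched on the male X, had 0.039 ± 0.063 (DESeq2 adjusted p = 0.736) in the authors' deposited table. Translational repression of msl-2 in females uses SXL with UNR and the product of Hrb27C. Unr had 0.045 ± 0.096 and did not pass, whereas Hrb27C was higher in Dahomey at 0.25 ± 0.083 (DESeq2 adjusted p = 0.0134) in the authors' deposited table. how, which acts with SXL to retain an msl-2 intron, was also higher, at 0.20 ± 0.081 (DESeq2 adjusted p = 0.0421) there. The gene of heterochromatin protein 1 (FBgn0003607) was lower at -0.29 ± 0.058 (DESeq2 adjusted p = 5.57e-06), and gfzf, a zinc-finger and glutathione-transferase-like protein gene, was lower at -0.28 ± 0.091 (DESeq2 adjusted p = 0.00883) in the authors' deposited table. MRG15, a relative of msl-3, was the third lower gene, and was named after its value was seen, at -0.19 ± 0.066.

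The NSL complex is the second complex of MOF and acts at housekeeping promoters in both sexes. Of its 6 genes, dgt1 was higher in Dahomey, at 0.30 ± 0.061 (DESeq2 adjusted p = 1.04e-05) in the authors' deposited table, and the other 5 did not pass. The 1 gene called was 16.7% of the 6, against 29.4% of all rows. The median log2 fold change of the 6 was 0.0025.

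Of 11 sex-biased genes, some of them targets of DSX, 7 had a p-value. The 3 called were 42.9% of the 7, against 29.4% of all rows. The yolk protein gene Yp1 was higher in Dahomey at 0.52 ± 0.16 (DESeq2 adjusted p = 0.00518), as was Fad2, the female pheromone desaturase gene, at 0.29 ± 0.10 (DESeq2 adjusted p = 0.0208), in the authors' deposited table. eloF, the female elongase that acts after Fad2 in the same pheromone pathway, was lower at -1.06 ± 0.11 (DESeq2 adjusted p = 1.60e-21) there. bab1 and bab2, which DSX regulates in the abdomen, had -0.071 ± 0.095 and -0.064 ± 0.065 in the authors' deposited table and did not pass. Yp2, Yp3, fit and Cyp4d21 had fold changes without a p-value, positive for Yp2 alone. Their log2 values were 0.38 ± 0.19 for Yp2 and -0.16 ± 0.15 for Yp3 in the authors' deposited table. For fit the value was -0.46 ± 0.34 and for Cyp4d21 -0.52 ± 0.29 there.

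**Figure D4:**
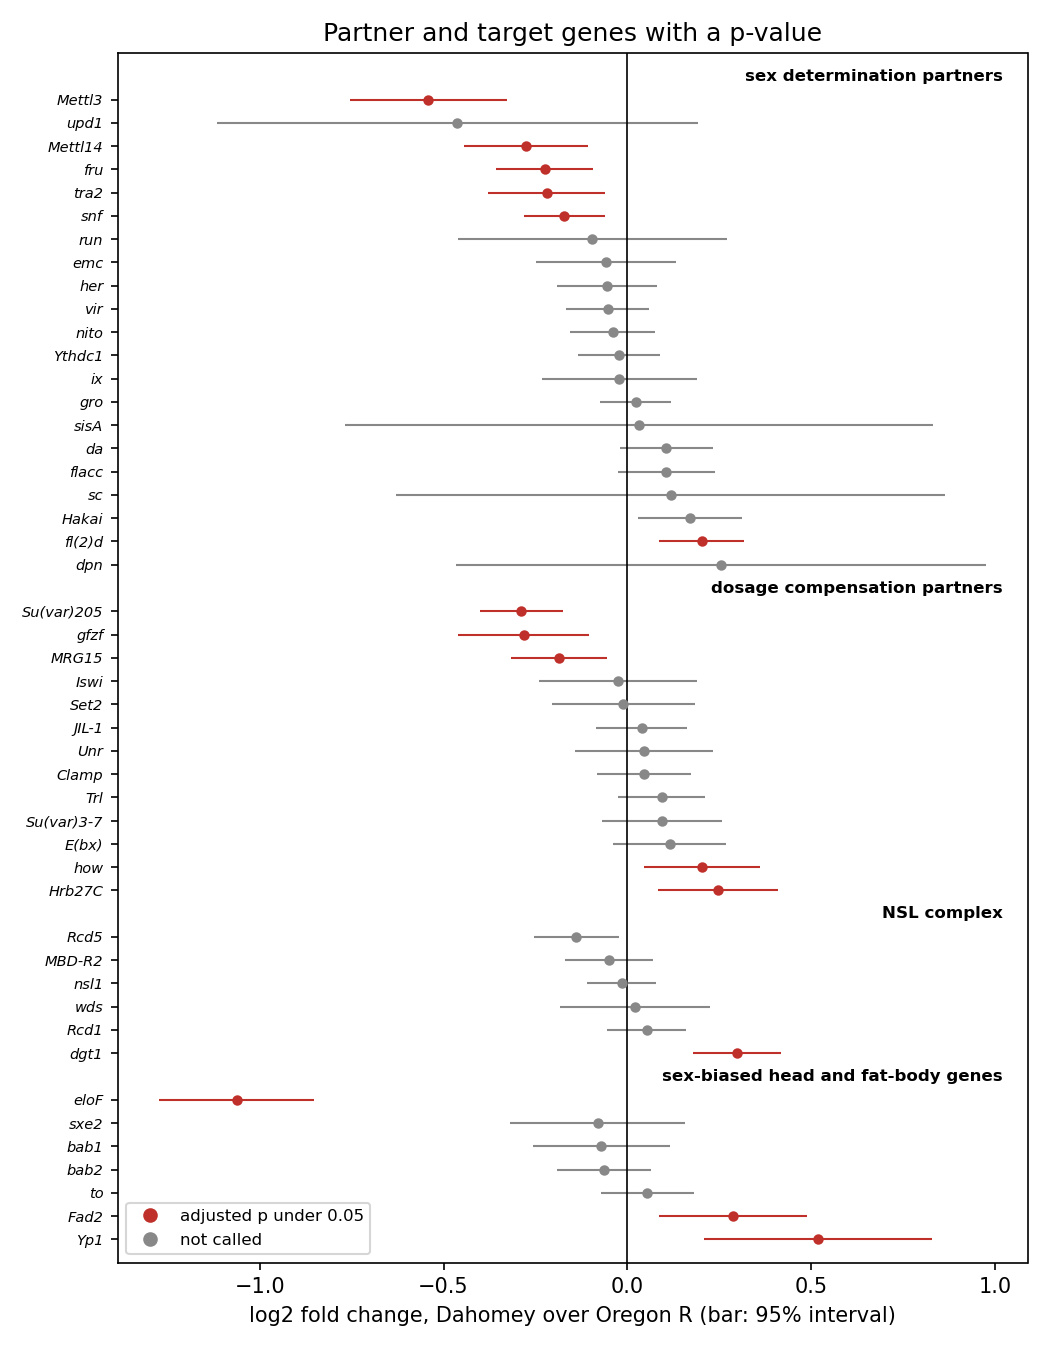
Log2 fold change, Dahomey over Oregon R, with 95% intervals for the 47 partner and target genes with a p-value, grouped by list; red marks genes at an adjusted p under 0.05. Of the red genes 9 lie left of 0 and 6 right of it, with Mettl3 at -0.54 and eloF at -1.06 farthest to the left.

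The labels give only females, and markers bear on this. All 10 Y-linked genes on the list had a mean of 0, though these genes act in the male germ line and would be silent in male heads too. Of 13 male accessory gland genes 10 had means under 10 normalized counts, with lectin-46Ca at 620 as the highest, and of 16 testis genes none reached 100. In the authors' deposited table lectin-46Ca and antr had log2 fold changes of -0.45 ± 0.15 and -1.12 ± 0.40 (DESeq2 adjusted p = 0.0110 and 0.0207), and the testis gene can had 2.07 ± 0.29 at a mean of 57.5. The highest of the testis genes, Mst77F, had a mean of 70.8 and did not pass. Of 8 head and thorax markers all were present, led by the opsin gene ninaE, and 5 of the 7 with a p-value were called, against 29.4% of all rows. The marker up was higher in Dahomey at 0.26 ± 0.048, and trp, Syt1, fln and TpnC4 were lower with values of -0.32 to -0.77, in the authors' deposited table. The flight-muscle actin gene Act88F had a Dahomey to Oregon R ratio of 2.38 there (95% interval 1.92 to 2.96) without a p-value, opposite in direction to the flight-muscle genes fln and TpnC4.

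Ovary markers were present, although the labels name heads and thoraxes. All 13 ovary markers had means of at least 506 normalized counts, with osk highest at 11153, and none of the 13 had a p-value. The median SE of these markers was 0.38, and their log2 fold changes ran from -2.28 to 0.27 in the authors' deposited table. Ovaries also express Sxl, mle and msl-1. The part of ovary or other abdominal RNA in the values of these genes and the other members was not tested. Nor was it tested for the partner and target genes, including Yp1, Fad2 and eloF. In bulk RNA, fewer cells of a type and less RNA per cell cannot be told apart.

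Of the 10 genes 4 are X-linked (roX1, roX2, mof and Sxl), and all 4 had negative fold changes. Of 2036 X-linked genes tested, 48.9% had a negative log2 fold change and the median was 0.0080, against 51.5% and -0.0080 for 10716 genes on the arms of chromosomes 2 and 3. The shares called were 28.6% on the X and 30.0% on those arms, with 311 X-linked genes higher in Dahomey and 271 lower. The difference between the X and the other arms was not tested.

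**Figure D5:**
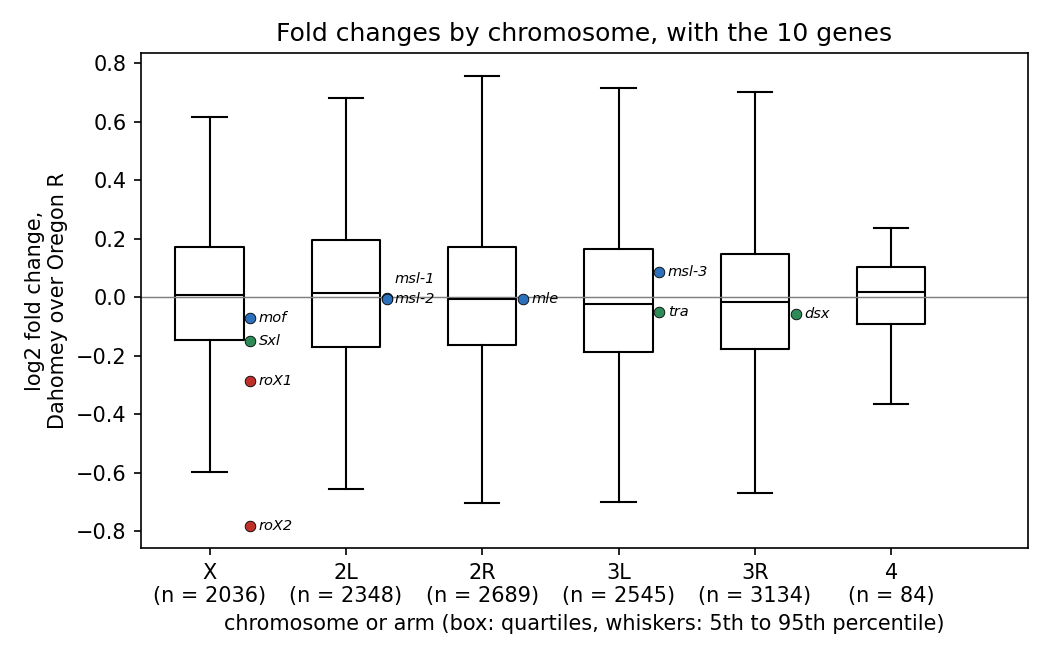
Log2 fold changes of the genes tested on each chromosome or arm, as boxes of quartiles with whiskers from the 5th to the 95th percentile, with the 10 genes as coloured points beside their chromosome. The medians of the X and of the large arms lie between -0.022 and 0.014, and roX2 at -0.78 is the member outside the whiskers of its chromosome.

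The nearest gene on each side of each member was taken among genes of the authors' deposited table that did not overlap that member. Of these 20 genes 16 had a p-value, and 3 were lower in Dahomey and 1 was higher. These 4 are 25% of the 16, near the 29.4% of all rows. CG4615, beside Sxl, was lower with a log2 fold change of -0.71 ± 0.096 (DESeq2 adjusted p = 3.04e-12) in the authors' deposited table, beside -0.15 for Sxl. ND-PDSW, a complex I subunit gene beside msl-2, had -0.18 ± 0.044, CG31751 beside msl-1 had -0.27 ± 0.092, and CD98hc beside dsx had 0.12 ± 0.036 in the authors' deposited table, all called by DESeq2. The genes beside roX1, roX2, mof, mle, msl-3 and tra either did not pass or had no p-value.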

How the data were processed

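The data were 1 table, the authors' comparison of 4 Dahomey with 4 Oregon R libraries. The submitters' processing notes name DESeq2, TopHat2 2.0.7, FastQC and bcl2fastq, and genome build BDGP5; for counting program, annotation and strand setting, the sources used here give nothing. Per the file headers, columns were a mean (a signal on the scale of normalized counts, as deposited), a log2 fold change and its SE, and a raw and an adjusted p-value. The authors' log2 fold changes look shrunken, since SE never exceeded 0.42, so changes of low genes may be understated. The deposited p-value matched that of a Wald test with a largest difference of 4.1e-15. A fold change stood without a p-value on 916 rows, and the headers do not say why. Whether 1 extreme library lay behind such a row cannot be read without values per library. The authors' adjusted p under 0.05 was the threshold, which a Wald ratio of 2.44 met.

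IDs were matched to symbols by a table of gene IDs (14367 of 14701 matched); where an ID stood on several rows the highest mean was kept. Shares over genes used 1 row per ID and per block of identical values (13065 genes). Intervals are fold change ± the normal 95% range of SE, unadjusted. Implied strain levels split the mean by the fold change, so a shrunken fold change brings them closer together. Arms, exon lengths and overlaps came from a BDGP6 annotation by ID, so no coordinates or sequences are given. Nothing says that libraries of a strain were separate cultures, so p-values measure the spread between these samples. Python 3.11.15 with numpy 2.4.6, pandas 2.3.3, scipy 1.17.1 and matplotlib 3.10.9 was used, and the adjustment code was tested on simulated data.

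All members were named, with up to 2 higher and 2 lower genes per pathway list by smallest p. Every called gene of lists of 6 or fewer, the highest and the called marker genes, and the nearest genes on each side were also named. Outside this rule, further list genes were named, including ones not called or without a p-value. Genes sharing exonic bases with members were named too. Members and lists were chosen with earlier results of these data known. Alternatives were minimum means of 10 and 100, 1 row per gene, Benjamini-Yekutieli adjustment, a threshold of 0.01, re-centring on genes with a mean of at least 1000, SE multiplied by 1.5, and the other Sxl row.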

Additional observations from a re-analysis of the deposited data

How the results depend on the processing

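Sxl was the member whose call depended on the setting: its log2 fold change of -0.15 passed when p-values were adjusted over rows with a mean of at least 10 or of at least 100, which raised the members called from 0 to 1, lower in Dahomey, under each; fewer rows tested is what these settings change. The other 9 members passed under none of the alternatives run, with roX1 closest at an adjusted p of 0.0503 to 0.633 over them. Of the 15 partner and target genes called, 6 were called with Benjamini-Yekutieli adjustment and 4 with SE multiplied by 1.5, and X-linked genes called fell from 582 to 295 with SE multiplied by 1.5; both settings are stricter by construction. Re-centring subtracted -0.00050 from fold changes and changed no member's call. No paired analysis was possible because the columns carry no value for any library; leaving out a library and TMM scaling were not run for the same reason. Low counts limit roX2 most.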
